A study of Mus musculus with 24 samples.

Results

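The genes described here encode nuclear subunits of the mitochondrial respiratory chain and of ATP synthase. They were chosen by symbol: names starting with Ndufa, Ndufb, Ndufc, Ndufs, Ndufv, Uqcr, Cox4i, Cox5, Cox6, Cox7, Cox8 or Atp5, together with Sdha, Sdhb, Sdhc, Sdhd and Cyc1, without assembly factors and pseudogenes. This gave 82 of the 18193 genes that had a probe set naming 1 symbol, and 167 of 45037 probe sets. Complex I contributed 34 genes, complex II 4, complex III 8, complex IV 19 and complex V 17. Ndufa4 and its paralog Ndufa4l2 were counted with complex IV, since NDUFA4 is a cytochrome c oxidase subunit. Each gene was read from its brightest probe set in the tissue, 34 genes having only 1 and 48 having up to 6. After a filter on dim probe sets, 79 of the 82 were tested in gastrocnemius and 80 in heart. The 13 subunits encoded by mitochondrial DNA were not analysed here.

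RNA came from the gastrocnemius, a calf muscle, and the heart of 12 male mice aged 2 months. Each tissue had 3 arrays per genotype: wild type, Cmah knockout, mdx and mdx with Cmah knockout. Cmah encodes the enzyme that makes the sialic acid Neu5Gc, and the knockout carries a human-like mutation of it. mdx mice carry a mutation of the dystrophin gene Dmd and model Duchenne muscular dystrophy. Wild type and Cmah knockout mice carried the strain label C57BL/6J, and both mdx groups C57BL6/10J, so that dystrophin loss and strain cannot be told apart. The values are array intensities on a log2 scale, where a difference of 1 is a doubling, and the number of arrays limits their precision. The study compared the genotypes within each tissue, and the animal numbers in the labels pair the tissues.

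The respiratory chain passes electrons from NADH (complex I, NADH dehydrogenase) and succinate (complex II, succinate dehydrogenase) through complex III (cytochrome bc1) to oxygen at complex IV (cytochrome c oxidase). Complexes I, III and IV pump protons across the inner mitochondrial membrane, and complex V, ATP synthase, uses their return to make ATP. The heart works without pause on oxidative metabolism, whereas the gastrocnemius of the mouse is mostly fast-twitch muscle. Several complex IV subunits exist as a widely expressed isoform and as one enriched in heart and skeletal muscle, among them Cox6a1 and Cox6a2, Cox7a2 and Cox7a1, and Cox8a and Cox8b.

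2 heart arrays stood apart from the rest, Cmah knockout replicate 3 and Cmah knockout mdx replicate 2. The Gapdh controls at the 3' end minus those at the 5' end, a log2 difference that rises with RNA degradation or truncated amplification, read 4.29 and 4.43 on these, against 0.44 to 1.6 on the other 10 hearts and 0.363 to 1.02 in gastrocnemius. Their median correlation with the other hearts was 0.543 and 0.857, against 0.942 to 0.976. Counts that include heart are therefore given with and without them, and the tissue difference of a gene is that of the fit without them unless 24 arrays are named. Among the other 22 arrays, the 4 of each tissue with the largest Gapdh difference came from the same 4 animals, 1 of each genotype. They read 0.82, 1.02, 0.764 and 0.971 in gastrocnemius (wild type replicate 3 and replicate 1 of the other groups), against 0.363 to 0.709 on the rest, and 1.09, 1.48, 0.976 and 1.6 in heart (replicate 2 of wild type and mdx, replicate 1 of the other groups), against 0.44 to 0.537. A fit with these arrays as a block was added for this reason. A block found from the arrays themselves can make counts of calls too high. The actin controls, read in the same way, did not pick the same 4 arrays in gastrocnemius. Wild type replicate 3 read 1.03 there, below wild type replicate 2 at 1.29 and mdx replicate 2 at 1.38. In heart they read 1.88, 2.09, 1.66 and 2.18 on the 4 arrays and 1.28 to 1.57 on the rest of the 10. Dmd itself was at 10.16 ± 0.10 in wild type and 8.37 ± 0.28 in mdx gastrocnemius (SD, n = 3). Cmah levels overlapped between genotypes, and the labels do not say whether its probe set lies in the mutated region. All 8 cardiomyocyte markers measured were higher in heart, with a median of 7.34 on 22 arrays, and all 8 fast fibre markers were lower. The summed fast fibre level was 16.34 to 16.72 in gastrocnemius and 8.98 to 14.37 in heart, so hearts differed widely in these transcripts, whose part in the results below was not tested.

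Promoters of these genes are known for sites of the factors NRF1, GABPA (of the ETS family) and the estrogen-related receptors (ERR). Promoter windows of 300 bases in the RefSeq table for GRCm38.p6 matched 66 of the 82 genes, and 3 letter strings were searched on both strands. CCGGAAG and AAGGTCA can overlap in the letters AAG, and each was counted on its own. CCGGAAG, the ETS core, was in 17 windows (25.8%), against 9.93% of the windows of all 27025 genes. AAGGTCA, the ERR core, was in 8 (12.1%, against 5.38%). The core string of NRF1 was in 4 (6.06%, against 1.07%). Of the 37 matched genes that were higher in heart in the 22-array fit given below, 11 held the ETS string (29.7%), 3 the ERR string (8.11%) and 0 the NRF1 string. Of the 29 other matched genes, 6 held the ETS string (20.7%), 5 the ERR string (17.2%) and 4 the NRF1 string (13.8%). The stretches shown, 1 for each complex, are the 150 bases before the start of a gene of that group with an ETS string in capitals, chosen after the values were seen, to show where the string lies. All are on the minus strand of GRCm38.p6, printed 5′ to 3′ in the direction of the gene: chr2:90904722-90904871 for Ndufs3 (complex I), chr9:50603850-50603999 for Sdhd (II), chr10:80406822-80406971 for Uqcr11 (III), chr7:30626115-30626264 for Cox6b1 (IV) and chr11:115419920-115420069 for Atp5h (V).
Ndufs3: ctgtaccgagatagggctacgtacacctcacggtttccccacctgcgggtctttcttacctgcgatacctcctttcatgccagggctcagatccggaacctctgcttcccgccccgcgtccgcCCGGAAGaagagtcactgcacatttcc
Sdhd: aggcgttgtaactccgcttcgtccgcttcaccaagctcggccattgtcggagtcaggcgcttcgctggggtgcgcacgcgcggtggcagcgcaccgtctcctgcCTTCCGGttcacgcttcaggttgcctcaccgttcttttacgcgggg
Uqcr11: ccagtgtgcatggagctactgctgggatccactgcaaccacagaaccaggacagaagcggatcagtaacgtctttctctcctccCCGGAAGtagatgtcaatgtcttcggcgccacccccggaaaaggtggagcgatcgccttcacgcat
Cox6b1: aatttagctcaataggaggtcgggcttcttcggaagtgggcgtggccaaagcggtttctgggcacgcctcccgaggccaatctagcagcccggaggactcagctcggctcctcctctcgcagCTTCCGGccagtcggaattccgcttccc
Atp5h: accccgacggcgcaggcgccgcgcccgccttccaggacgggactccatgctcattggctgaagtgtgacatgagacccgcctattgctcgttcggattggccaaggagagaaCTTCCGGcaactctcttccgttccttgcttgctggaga
A match is a description of letters, and no binding was measured.

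Between the tissues, the median of each of the 5 complexes was higher in heart. Averaged over the 4 genotypes on all 24 arrays, 73 of 82 read higher in heart, and the median difference was 0.20 on the log2 scale, while the median over all 14091 genes tested was -0.11. In bulk tissue, fewer cells of a type and less RNA per cell cannot be told apart. 13 rose past an adjusted p of 0.05 and 0 fell (limma, animal as a random block, Benjamini-Hochberg over all probe sets), beside 11.9% of all tested probe sets called higher and 14.9% lower. Of the 13, 8 belong to complex IV (Cox7c, Cox6b2, Cox7b2, Cox4i2, Cox8a, Cox7a1, Cox6c and Cox7a2l) and 5 to complex I (Ndufa1, Ndufs1, Ndufa6, Ndufs4 and Ndufa5). Among these Cox7b2 was dim, with a mean of 3.33 at the 18.3rd percentile of all probe sets. The count rested on single arrays. It was 28 without heart Cmah knockout replicate 3, beside 11759 of all probe sets called in either direction. Without gastrocnemius wild type replicate 2 it was 8, beside 7546.

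Without both deviating heart arrays, 78 of 82 read higher in heart, the median difference was 0.28 (1.22-fold) against 0.03 over all probe sets tested, and 46 rose, with 0 lower. In the same fit 23% of all probe sets were called higher and 18.5% lower. The 46 were 19 of 34 in complex I, 2 of 4 in complex II, 5 of 8 in complex III, 12 of 19 in complex IV and 8 of 17 in complex V. The medians by complex were 0.29, 0.26, 0.29, 0.35 and 0.23. In 45 of the 82 genes the heart was above the gastrocnemius of the same animal in all 10 animals, which held for 14.1% of all tested probe sets, and 0 genes were lower in all 10, against 10.8% of probe sets. With the Gapdh block added to this fit, 63 of the 82 genes rose and 0 fell, the 46 among them, beside 29.1% of probe sets called higher and 24.1% lower. The genes gained include Cox5a (0.25 ± 0.07), Cox6a1 (0.38 ± 0.09), Ndufb10 (0.28 ± 0.09), Sdha (0.23 ± 0.08) and Atp5b (0.19 ± 0.08). Other Cox5a probe sets of like brightness, with means of 12.16 and 12.23, had 0.01 and 0.03 on 22 arrays without the block. Neither passed (adjusted p = 0.954 and 0.813, limma), so the result for Cox5a depended on the probe set.

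**Figure D1:**
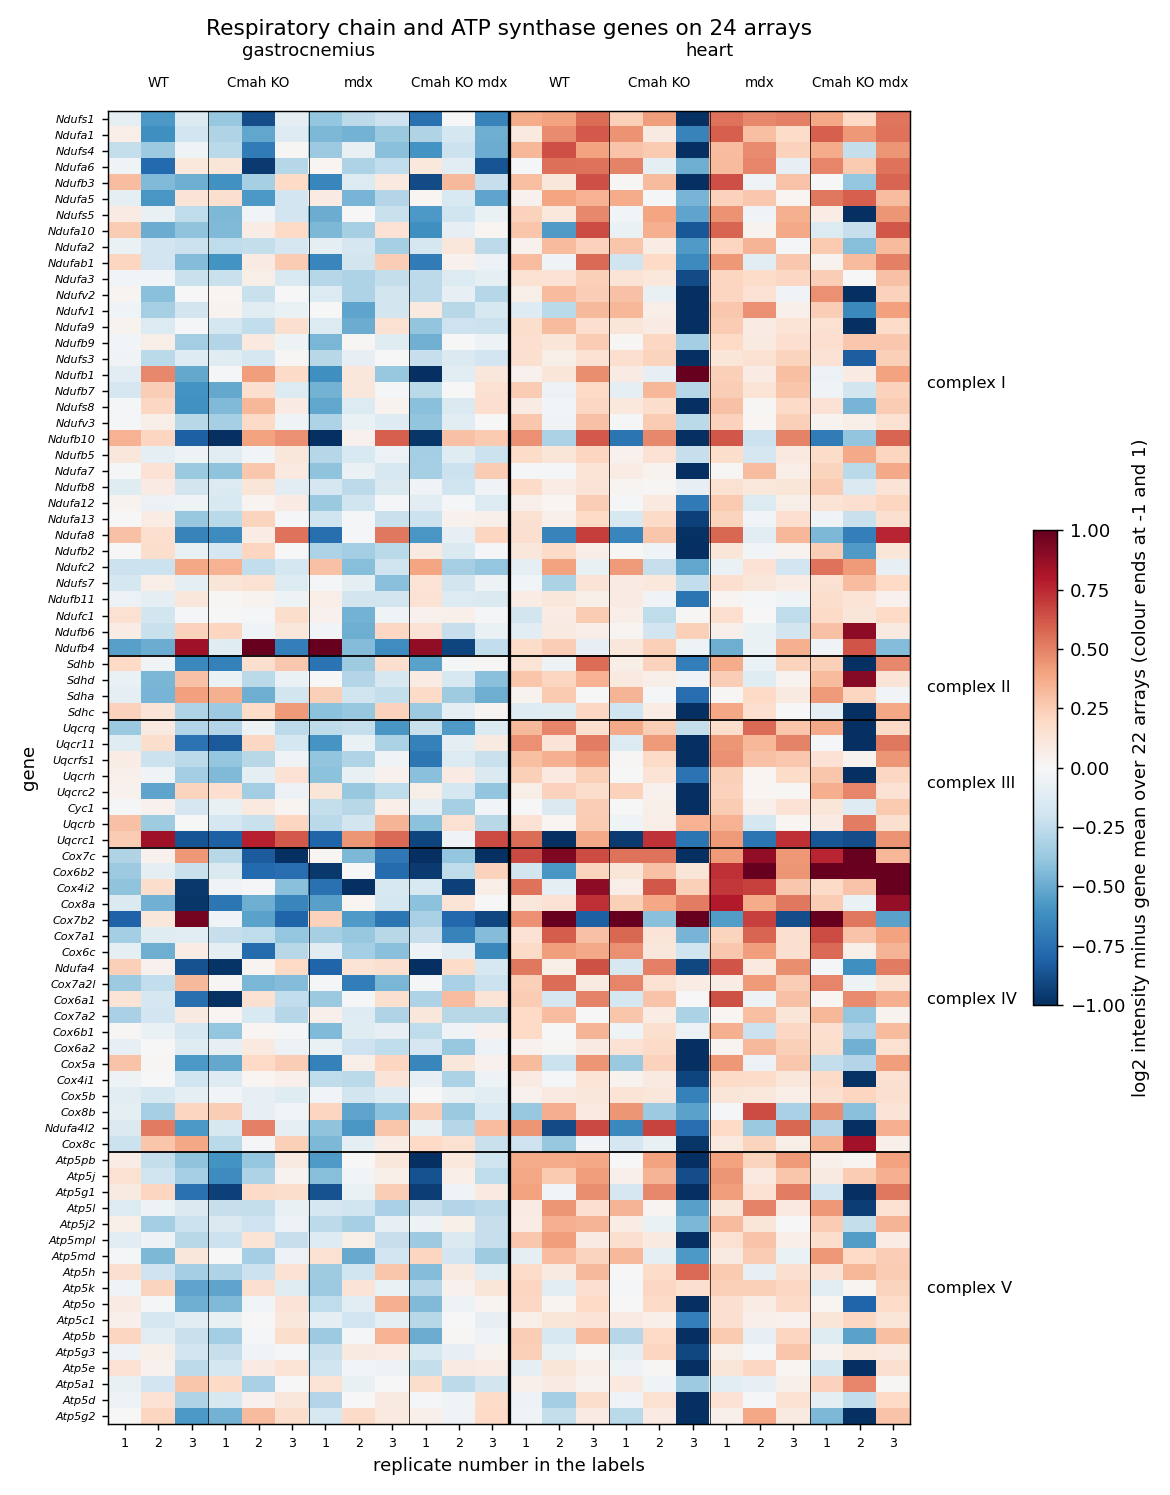
Log2 intensity of the 82 genes (rows, by complex, then by tissue difference) on 24 arrays (columns, by tissue, genotype and replicate), as the difference from the gene's mean over 22 arrays. Red is above and blue below that mean; most rows are redder in heart, and 2 heart columns, Cmah knockout replicate 3 and Cmah knockout mdx replicate 2, break the pattern.

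**Figure D2:**
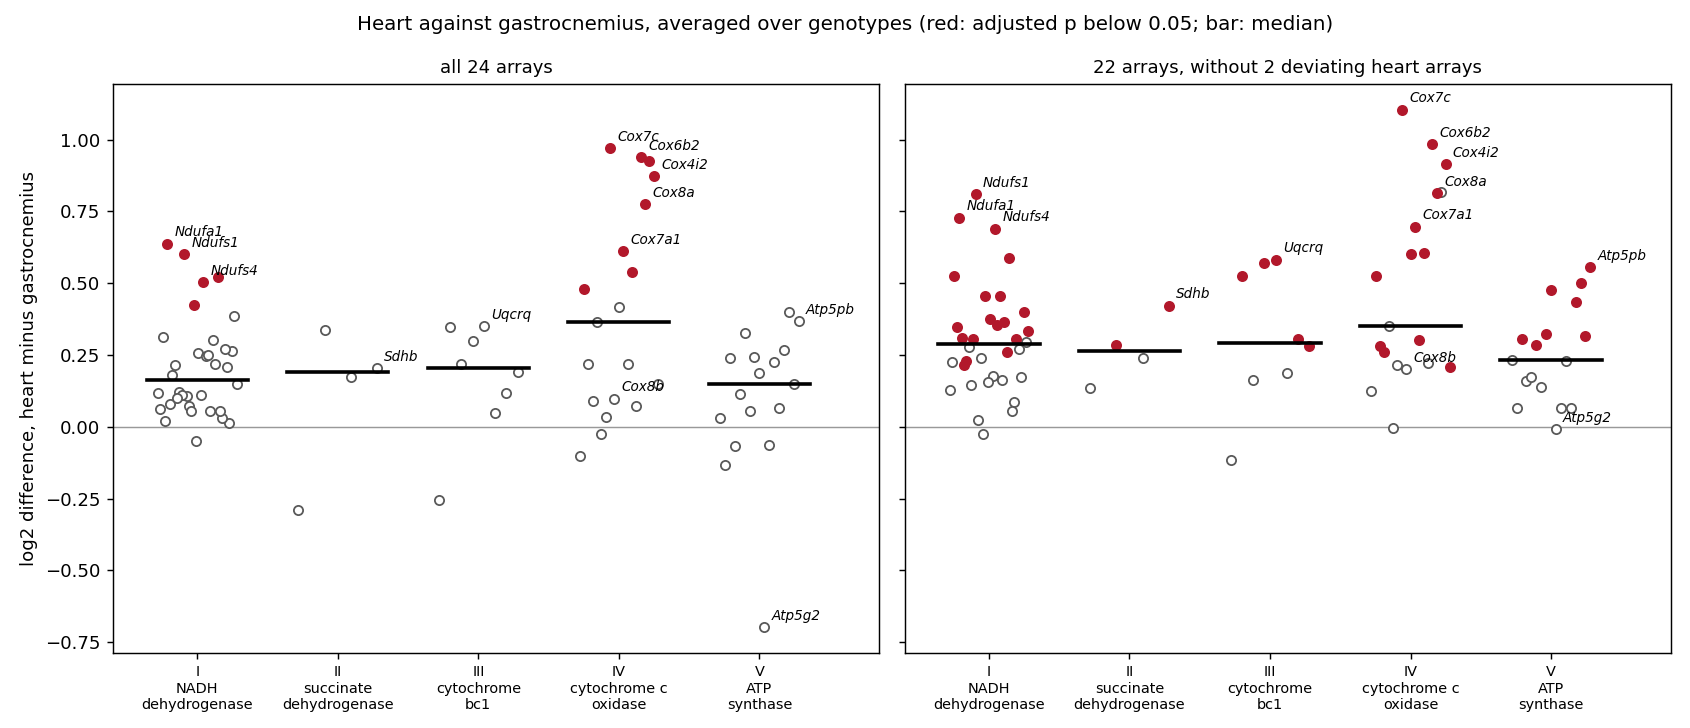
Log2 difference, heart minus gastrocnemius averaged over genotypes, for each gene (points) by complex, on 24 arrays (left) and 22 arrays (right). Red points have an adjusted p below 0.05 (13 on the left, 46 on the right), and bars are medians.

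In complex I, the largest difference without the 2 arrays was that of Ndufs1, the core subunit that carries several iron-sulfur clusters. Ndufs1 read 10.92 to 11.81 in the 12 gastrocnemius arrays (median 11.49) and 12.05 to 12.37 in 10 hearts (median 12.26), with 9.94 and 12.01 on the deviating arrays. All 10 hearts lay above all gastrocnemius arrays, and the difference was 0.81 ± 0.12 (SE, adjusted p = 1.87e-05, limma; 0.60 ± 0.20 and 0.0328 on 24 arrays). Ndufa1, a small membrane subunit, read 11.33 to 12.01 in gastrocnemius (median 11.61) and 12.03 to 12.56 in heart (median 12.40). Its groups also did not overlap, and the difference was 0.73 ± 0.10 (0.64 ± 0.14 on 24 arrays, where it was larger than that of Ndufs1). Ndufs4, an accessory subunit whose loss causes Leigh syndrome, read 10.71 to 11.42 in gastrocnemius (median 11.09) and 11.64 to 12.05 in heart (median 11.76), a difference of 0.69 ± 0.10. Its deviating arrays read 10.19 and 11.17, and with them the difference was 0.50 ± 0.17. Dimmer Ndufs4 probe sets, with means of 10.37, 8.05 and 4.45, had 0.40, 0.01 and 0.31 on 22 arrays. Only the first of these passed (adjusted p = 0.00824, 0.975 and 0.441, limma). Such separation of all 10 hearts from all 12 gastrocnemius arrays was seen in 10 of the 82 genes and in 4.03% of all tested probe sets.

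Not all of complex I differed alike in size. Ndufv1, which binds NADH and the flavin, read 12.30 to 12.93 in gastrocnemius (median 12.69) and 12.56 to 13.29 in heart (median 13.08), an overlapping pair of groups with a difference of 0.33 ± 0.10 that passed without the 2 arrays and was 0.15 ± 0.17 with them. Ndufv2, its partner in the same module, had 0.35 ± 0.09 without the 2 arrays and 0.02 ± 0.23 with them, its deviating arrays reading 9.93 and 11.31. Ndufb6, Ndufc1 and Ndufb11 had values of 0.02, 0.06 and 0.09, with adjusted p of 0.88, 0.683 and 0.428 (limma), and 0.11, 0.06 and 0.03 on 24 arrays. Ndufa12 differed between its probe sets. The brightest had 0.18 ± 0.09, which did not pass. Those of like brightness had 0.28, which passed as higher (adjusted p = 0.0177, limma), and 0.06, which did not pass. A far dimmer one, with a mean of 5.29, had -0.91 and passed as lower in heart. Of 79 other tested probe sets of the 82 genes, 75 had the sign of the brightest in the 22-array fit. Of these 79, 36 were called higher in heart and 1, the dim Ndufa12 probe set, lower. Of all probe sets, 23% were called higher and 18.5% lower.

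Complex II oxidises succinate to fumarate and is shared with the tricarboxylic acid cycle. Sdhb, its iron-sulfur subunit, read 11.53 to 12.54 in gastrocnemius (median 12.25) and 12.21 to 12.83 in 10 hearts (median 12.50), a difference of 0.42 ± 0.14 (adjusted p = 0.0232, limma). Sdhd, a membrane anchor, read 11.04 to 11.80 and 11.38 to 11.85, a difference of 0.28 ± 0.10 that also passed. The groups of both overlapped, and neither passed on 24 arrays, where Sdhb read 0.21 ± 0.20 and Sdhd 0.34 ± 0.14. Sdha, the flavoprotein, had 0.24 ± 0.13 (0.17 ± 0.16 on 24 arrays) and Sdhc, the other anchor, 0.13 ± 0.12 (-0.29 ± 0.30), neither past the threshold. Dimmer Sdha probe sets, with means of 11.82 and 6.64, had 0.65 and 0.54 on 22 arrays. Both passed as higher in heart (adjusted p = 0.00198 and 0.0286, limma), so the result for Sdha depended on the probe set. Sdhc read 7.70 on heart Cmah knockout replicate 3, against 11.35 to 11.93 on 10 hearts.

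Of complex III, Uqcrq, a small subunit next to cytochrome b, read 11.36 to 12.04 in gastrocnemius (median 11.69) and 12.11 to 12.51 in heart (median 12.25). All 10 hearts were above all gastrocnemius arrays, and the difference was 0.58 ± 0.10 (adjusted p = 0.000134, limma). It was 0.35 ± 0.20 on 24 arrays, since the deviating heart of the Cmah knockout mdx group read 10.03. Uqcrfs1, the Rieske iron-sulfur protein, had 0.53 ± 0.10, Uqcr11 0.57 ± 0.14, and Uqcrh and Uqcrc2 0.31 and 0.28, all past the threshold. On 24 arrays these 4 had 0.35, 0.30, 0.12 and 0.19, none past it. Cyc1, cytochrome c1, had 0.19 ± 0.09 (0.05 ± 0.15 on 24 arrays) and did not pass. Uqcrc1, a core subunit, had -0.12 ± 0.30 (-0.25 ± 0.28 on 24 arrays) and varied widely within groups, reading 11.79, 12.38 and 10.67 in wild type gastrocnemius and 12.09, 10.09 and 11.92 in wild type heart.

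Complex IV held the largest differences of the 82 genes in the fit without the 2 arrays, those of Cox7c, Cox6b2 and Cox4i2. The size of the difference moved with the brightness of the probe set. Its median was 0.81 over the 9 genes whose mean intensity lay below the 95th percentile of all probe sets, Cox7c, Cox6b2, Cox4i2 and Cox8a among them. It was 0.39 over 24 genes between the 95th and 99th percentile and 0.26 over 49 genes above it. The part of brightness in these sizes was not tested. Cox7c, a small structural subunit, read 5.41 to 7.30 in gastrocnemius (median 6.45) and 7.20 to 7.81 in 10 hearts (median 7.47), a difference of 1.10 ± 0.15 (2.15-fold, adjusted p = 7.7e-06, limma). On 24 arrays it was 0.97 ± 0.23. Cox6c read 12.04 to 12.88 and 12.92 to 13.37, with no overlap and a difference of 0.60 ± 0.11 (0.54 ± 0.14 on 24 arrays). Ndufa4 had 0.60 ± 0.20 and Cox7a2l, which takes part in joining complexes III and IV into supercomplexes, 0.53 ± 0.12. On 24 arrays these were 0.42 ± 0.22, not past the threshold, and 0.48 ± 0.14. Cox6b2, an isoform known from testis, read 4.99 to 6.18 in gastrocnemius and 5.36 to 7.42 in heart, with an averaged difference of 0.99 ± 0.17 (0.94 ± 0.18 on 24 arrays). By genotype the Cox6b2 difference was 1.72 ± 0.36 in Cmah knockout mdx mice, 1.43 ± 0.32 in mdx, 0.75 ± 0.36 with Cmah loss alone and 0.05 ± 0.32 in the wild type. Of these the first and second passed (adjusted p = 0.0036 and 0.00433, limma). Cox7c had 1.55 ± 0.31, 0.96 ± 0.27, 1.21 ± 0.31 and 0.69 ± 0.27 in the same order, and passed in all but wild type. Passing in some genotypes alone does not show that the genotypes differ. When the tissue difference was compared by dystrophin status, 0 of the 82 genes passed (smallest adjusted p 0.125 on 22 arrays, limma). Cox5b had 0.21 ± 0.08, which passed, and Cox5a 0.22 ± 0.15, which did not. On 24 arrays these were 0.15 and 0.07, neither past the threshold. Cox7b2, with 0.92 ± 0.32, passed on 24 arrays and not on 22 (0.82 ± 0.35, adjusted p = 0.0679, limma). It was dim, at 2.30 to 4.17 in gastrocnemius. Its hearts read 3.90 to 5.52 on the 4 arrays with the largest Gapdh difference and 2.32 to 3.67 on the rest of the 10. The deviating hearts read 5.42 and 3.74. The part of RNA quality in its difference was not tested.

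The paired isoforms differed in which partner had the larger tissue difference. Of the isoforms enriched in heart and muscle, Cox7a1 rose clearly in heart: 11.32 to 11.87 in gastrocnemius (median 11.68) and 12.12 to 12.64 in 10 hearts (median 12.33), with no overlap and a difference of 0.70 ± 0.10 (0.61 ± 0.14 on 24 arrays). Its partner Cox7a2 rose by 0.30 ± 0.10 (0.22 ± 0.13 on 24 arrays, not past the threshold). Within animals the difference between the partners was larger in heart by 0.39 ± 0.28 (SD, n = 10), in 9 of 10 animals (exact sign-flip permutation test, two-sided, p = 0.00391, 0.00652 adjusted over 5 pairs).

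In the Cox8 pair the widely expressed form had the larger difference. Cox8b, the muscle form, read 12.38 to 13.16 in gastrocnemius (median 12.82) and 12.53 to 13.56 in heart (median 13.02), overlapping and with a difference of 0.20 ± 0.14 (0.10 ± 0.16 on 24 arrays) that did not pass. Cox8a, the widely expressed form, read 8.62 to 9.73 (median 9.14) and 9.71 to 10.47 (median 9.97), nearly without overlap, and rose by 0.81 ± 0.12 (adjusted p = 3.51e-05, limma; 0.78 ± 0.15 on 24 arrays). The mean intensity of the Cox8b probe set lay at the 99.8th percentile of all probe sets and that of Cox8a at the 90.2nd. Cox8b minus Cox8a was lower in heart in 10 of 10 animals, by -0.63 ± 0.29 on average (SD, exact permutation p = 0.00195, the smallest that 10 animals can give, 0.00652 adjusted). A second Cox8a probe set had 0.76.

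Cox4i2, the isoform known to respond to low oxygen, rose by 0.92 ± 0.18 from 4.59 to 6.14 in gastrocnemius to 5.86 to 7.06 in heart, while Cox4i1 had 0.22 ± 0.09 (adjusted p = 0.052, limma). On 24 arrays these were 0.87 ± 0.19 and 0.04 ± 0.16. Their within-animal difference was 0.73 ± 0.52 higher in heart, in 9 of 10 animals (SD, exact permutation p = 0.00391, 0.00652 adjusted). For Cox6a2 against Cox6a1 it was -0.12 ± 0.31, higher in heart in 4 of 10 animals (p = 0.273, exact permutation test). Cox6a2 itself read 12.62 to 13.09 and 13.01 to 13.32 and passed at 0.26 ± 0.08, whereas Cox6a1 had 0.35 ± 0.14 (adjusted p = 0.0599, limma). On 24 arrays these were 0.09 ± 0.15 and 0.37 ± 0.16, neither past the threshold. Another Cox6a1 probe set, dimmer at a mean of 10.22, had 0.55 on 22 arrays and passed (adjusted p = 0.0086, limma). For Cox6b2 against Cox6b1 the within-animal difference was 0.66 ± 0.93 in 10 animals (7 of 10 higher, p = 0.0508, exact permutation test). In 12 animals it was 0.72 ± 0.85 (9 of 12 higher, p = 0.0132, exact permutation test). With all 12 animals the other 4 pairs kept the signs above.

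**Figure D3:**
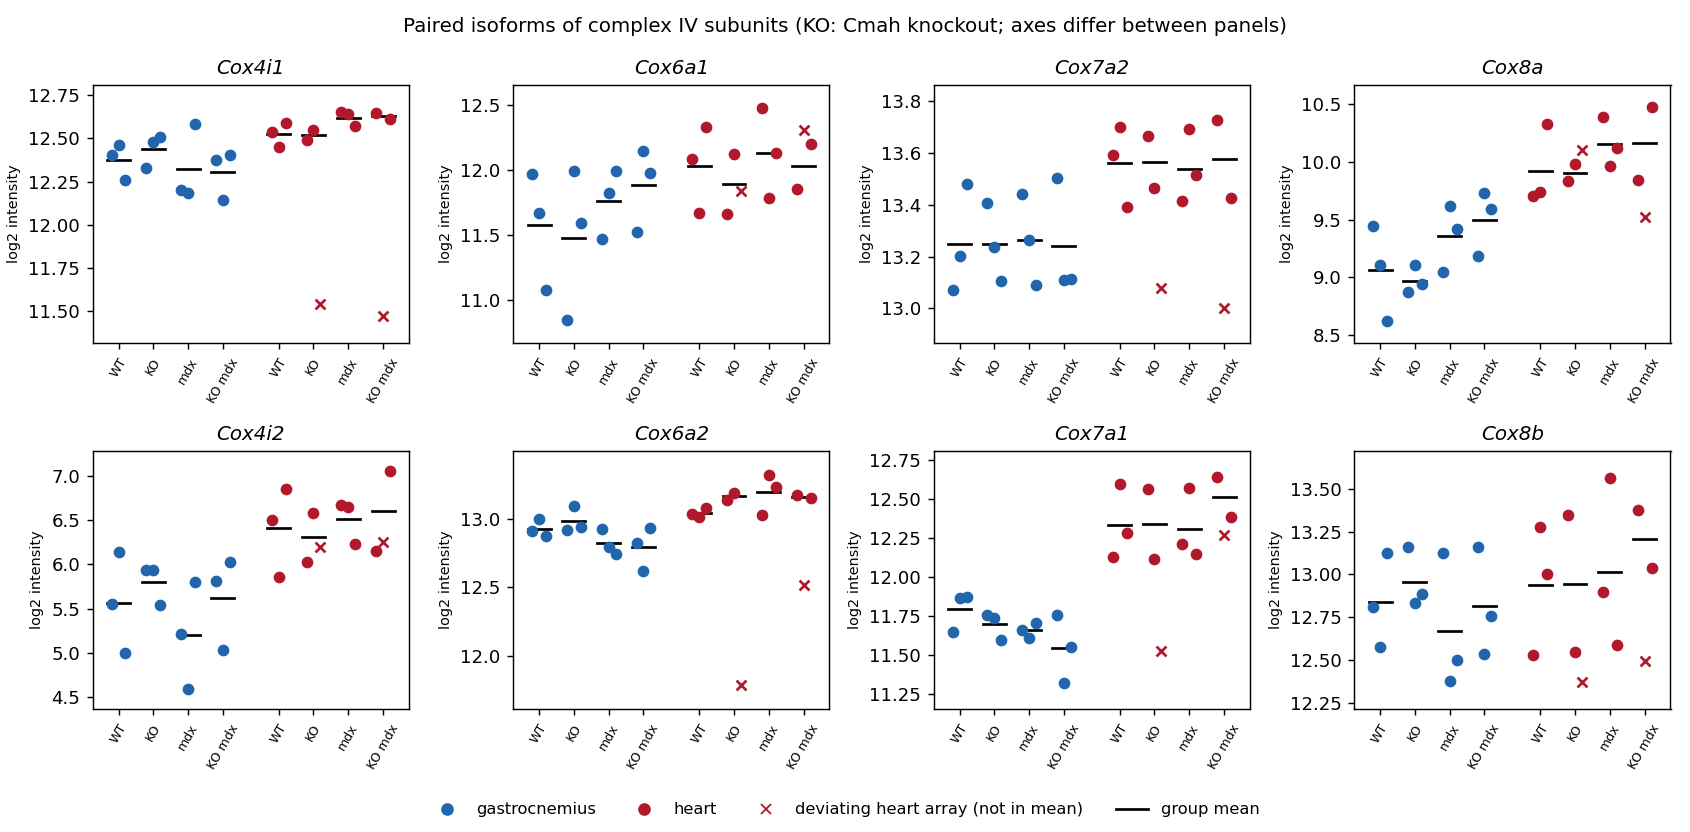
Log2 intensity on each array (points; crosses are the 2 deviating hearts) for 4 pairs of complex IV isoforms, the widely expressed form above and the partner below, in gastrocnemius (blue) and heart (red) by genotype; lines are group means without the crosses. Cox7a1 and Cox8a separate the tissues most, whereas Cox8b overlaps.

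In complex V, 8 of 17 genes rose without the 2 arrays. Atp5pb, subunit b of the peripheral stalk, read 11.47 to 12.59 in gastrocnemius (median 12.26) and 12.48 to 12.91 in 10 hearts (median 12.86), a difference of 0.56 ± 0.13 (adjusted p = 0.00257, limma). Atp5j, subunit F6 of the stalk, had 0.50 ± 0.12, Atp5g1, one of 3 genes for the c-ring subunit, 0.48 ± 0.18, and Atp5l, subunit g, 0.43 ± 0.09. The other c-ring genes had -0.01 ± 0.13 (Atp5g2) and 0.14 ± 0.09 (Atp5g3), neither past the threshold. Atp5a1 and Atp5b, the alpha and beta subunits of the catalytic head, had 0.07 ± 0.10 and 0.16 ± 0.12, also not past it. Whether the head subunits differ from the stalk subunits was not tested. On 24 arrays none of the 17 passed: Atp5pb had 0.37, Atp5j 0.40, Atp5g1 0.19 and Atp5l 0.27, and Atp5b turned to -0.07 ± 0.20. Atp5g2 read -0.70 ± 0.42, since its 2 deviating arrays read 6.80 and 8.55 against 11.39 to 12.23. Another Atp5g2 probe set, dim at a mean of 4.57, had 0.59 on 22 arrays and passed (adjusted p = 0.0043, limma).

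In wild type mice alone, 3 animals, 76 of 82 genes read higher in heart with a median of 0.26, and 0 passed on all 24 arrays, beside 6.36% of all probe sets called (limma; 3 genes had an unadjusted p under 0.05, against 16.6% of probe sets). Without the 2 deviating arrays, which are not wild type but enter the shared estimate of spread, 4 passed: Cox8a, Ndufa1, Ndufs1 and Ndufs4, beside 16.8% of probe sets. With the Gapdh block as well, 22 passed, all higher in heart, beside 30.5%. The median heart minus gastrocnemius difference over the 82 genes was 0.17 to 0.44 in each of 10 animals. It was -0.77 in the Cmah knockout animal and -0.05 in the Cmah knockout mdx animal whose hearts deviate.

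Companion genes were counted in the 22-array fit, where 23% of all probe sets were called higher and 18.5% lower. Of 17 tricarboxylic acid cycle and pyruvate dehydrogenase genes measured, 10 rose and 0 fell (median 0.39), led by Idh2 at 1.48 ± 0.21. Of 15 carriers and energy transfer genes, 7 rose, among them Etfdh at 1.67 ± 0.14, which feeds electrons from fatty acid oxidation into the chain, and Ucp3 fell by 1.17 on the log2 scale. Of 39 assembly factors, 14 rose and 3 fell, and of 20 biogenesis regulators 9 rose, among them the coactivator gene Ppargc1a at 1.06 ± 0.16, and 2 fell. On 24 arrays these counts were 4 and 0, 5 and 1, 5 and 0, and 2 and 2, beside 11.9% and 14.9% of all probe sets, so that the shares of the assembly factors and regulators called higher were near that of all probe sets.

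No gene of the 82 passed with dystrophin loss in gastrocnemius. Over all tested probe sets, small changes could hardly be called here. In simulated data the averaged comparison recovered 1 of 50 changes of 0.5 and 6 of 50 of 1, and mdx against wild type 0 of 50 of 1. The changed probe sets were drawn from all tested ones, and recovery among the 82 genes, most of them bright, was not measured. 0 of 79 tested passed in any comparison, beside 0.857% of all probe sets in the averaged comparison, 0.0169% in mdx against wild type and 0.112% in Cmah knockout mdx against Cmah knockout (limma; 0 of the 82 had an unadjusted p under 0.05 in the averaged comparison, against 10.1% of all probe sets). The median change was -0.08 on the log2 scale (0.943-fold), beside 0.02 over 13224 genes, and 67 of 82 read lower. 53 read lower both in mdx against wild type and in Cmah knockout mdx against Cmah knockout, which share no arrays, 9 read higher in both and 20 differed in sign. By complex, 31 of 34 genes read lower in complex I, 4 of 4 in II, 8 of 8 in III, 14 of 19 in IV and 10 of 17 in V. The median deviation of the 82 genes on single arrays ran from -0.15 to 0.11, with the genotypes overlapping. With the Gapdh block 0 passed as well, beside 3.57% of probe sets called, and Cox8a and Ndufb1 had an unadjusted p under 0.05.

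The genes of largest size went both ways. Cox8a read 9.45, 9.11 and 8.62 in wild type, 8.87, 9.11 and 8.94 in Cmah knockout, 9.05, 9.61 and 9.42 in mdx and 9.18, 9.73 and 9.59 in Cmah knockout mdx. Only the Cmah knockout pair did not overlap, and the averaged difference was 0.41 ± 0.21 (adjusted p = 0.566, limma). Ndufb1, a dim probe set, had -0.42 ± 0.27 and Cox7c -0.38 ± 0.25. The muscle isoforms Cox6a2, Cox7a1 and Cox8b read -0.15 ± 0.16, -0.15 ± 0.16 and -0.16 ± 0.21.

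Groups without overlap were few. Atp5l, Ndufa3 and Ndufb2 were lower in all 3 mdx than in all 3 wild type arrays, beside 2.75% of all probe sets. Ndufb2 read 11.89, 12.08 and 11.82 in wild type and 11.59, 11.55 and 11.63 in mdx, yet 11.73, 12.11 and 11.90 in Cmah knockout and 11.98, 11.75 and 11.89 in Cmah knockout mdx. Its mdx values were thus below all other groups, with a difference of -0.34 ± 0.23 (adjusted p = 1, limma). Ndufb5 was below, and Cox8a above, Cmah knockout in all Cmah knockout mdx arrays, beside 5.18% and 7.27% of probe sets.

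In these muscles markers of other cells differed. All 5 regenerating muscle markers read higher with dystrophin loss, 4 of them past the threshold (Myh3, embryonic myosin, by 3.70 ± 0.28), and all 10 macrophage markers read higher with a median of 1.46, 1 past it. The summed macrophage level was 12.70 to 13.88 without and 13.93 to 14.96 with dystrophin loss. All 5 fibroblast markers read higher, with a median of 0.41. All 4 genes shared by slow fibres and ventricle (Myh7, Tnnc1, Myl2 and Myl3) read lower, with a median of -0.21, and their summed level was 14.74 to 15.12 without and 14.46 to 14.95 with dystrophin loss. The median was -0.79 over 5 adipocyte markers, 1 of which read higher, 0.02 over 8 fast fibre markers, -0.05 over 2 slow fibre markers and 0.15 over 4 endothelial markers, with 0 past the threshold in these lists. Of the 8 cardiomyocyte markers, 6 read lower and Myl4, which developing muscle also expresses, rose by 2.46 ± 0.29. All 17 tricarboxylic acid cycle genes measured read lower, with a median of -0.10 and none past the threshold. The part of these cells and fibres in the small shift of the 82 genes was not tested.

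**Figure D4:**
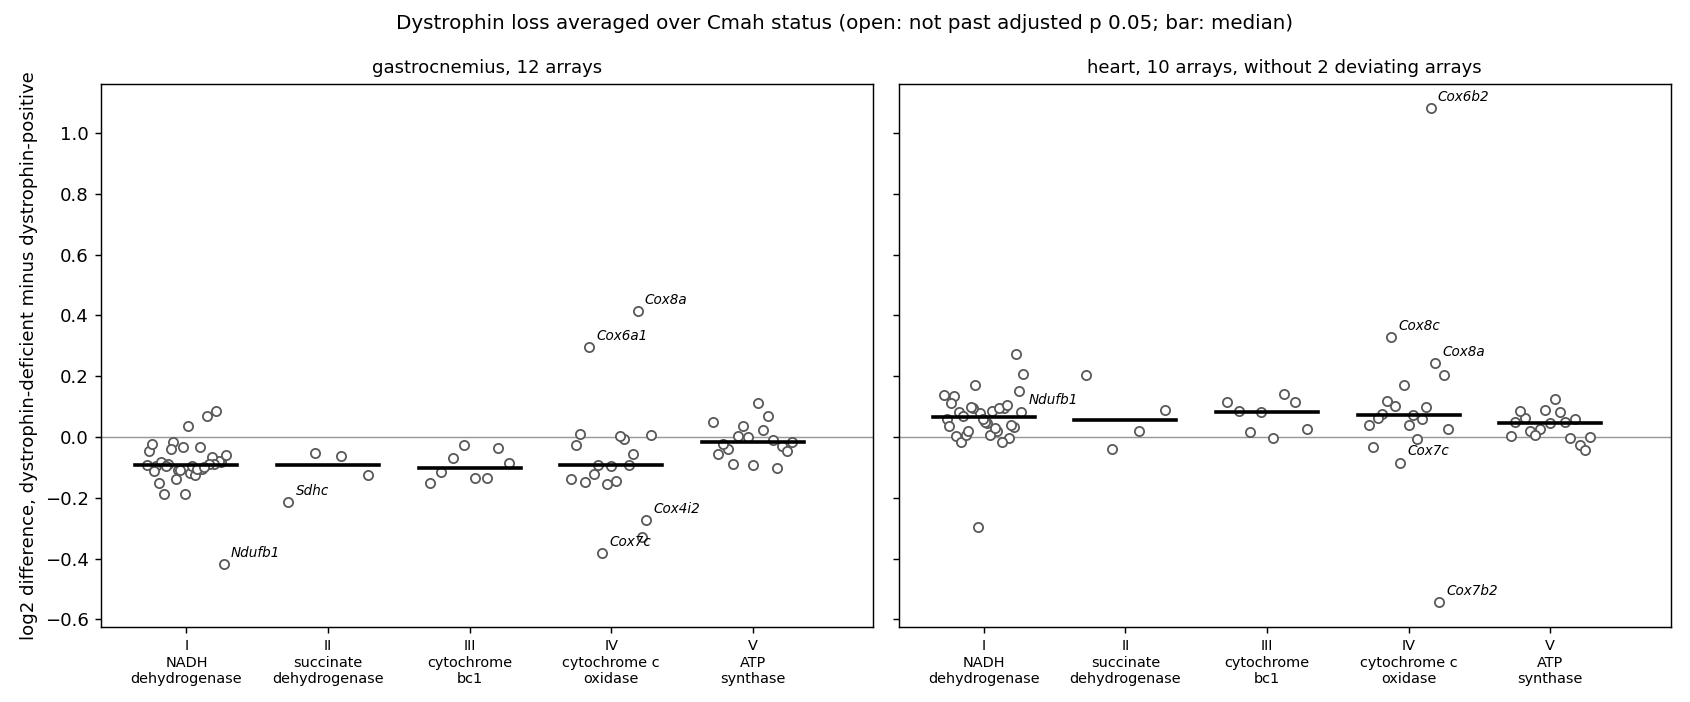
Log2 difference with dystrophin loss, averaged over Cmah status, for each gene (points) by complex in gastrocnemius (left, 12 arrays) and heart (right, 10 arrays). All points are open, since none has an adjusted p below 0.05; bars are medians, below 0 in all 5 complexes of gastrocnemius and above 0 in those of heart.

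In heart, dystrophin loss gave 0 calls among 80 tested genes, beside 0% of all probe sets, with and without the deviating arrays (limma; 1 gene had an unadjusted p under 0.05, against 0.836% of probe sets). In simulated data for all 12 hearts, the averaged comparison recovered 0 of 50 changes of 1 and 17 of 50 of 2, again drawn from all tested probe sets. The median over the 82 was 0.15 on 12 arrays, where that over all genes was 0.17, and 0.06 on 10 arrays against 0.00 over all probe sets, with 68 of 82 higher. The 1 gene was Cox6b2. It read 5.76, 5.36 and 6.18 in wild type, 6.07, 6.24 and 6.07 in Cmah knockout, 6.68, 7.33 and 6.39 in mdx and 7.42, 6.94 and 7.14 in Cmah knockout mdx. With and without Cmah, all 3 dystrophin-deficient hearts lay above the 3 others, with the 2 deviating arrays at 6.07 and 6.94 included. The differences were 1.03 ± 0.41 and 1.04 ± 0.41 in the 2 comparisons and 1.04 ± 0.29 averaged (unadjusted p = 0.00353, adjusted p = 0.999, limma), and 1.08 ± 0.24 without the 2 arrays. With the Gapdh block as well, the standard error was 0.23 (adjusted p = 0.359, limma). The same gene was the 1 with an unadjusted p under 0.05 in mdx against wild type and in Cmah knockout mdx against Cmah knockout. Non-overlap of this kind was seen in 2 of the 82 genes in the former comparison, beside 3.56% of probe sets, and in 9 in the latter, beside 2.07%. The 9 were Atp5c1, Cox5b, Cox6b2, Cox8c, Ndufa12, Ndufb5, Ndufc1, Ndufs7 and Sdhd. Without the 2 deviating arrays, which leaves 2 against 2, there were 24, beside 7.57% of probe sets. Ndufb11 and Uqcrh lay below wild type in all 3 mdx hearts, beside 3.81%. In gastrocnemius Cox6b2 read 5.59, 5.85 and 5.73 in wild type, 5.81, 5.17 and 5.19 in Cmah knockout, 4.99, 5.95 and 5.18 in mdx and 5.00, 5.69 and 6.18 in Cmah knockout mdx, with overlapping groups and a difference of -0.06 ± 0.26. Cox8c, another isoform known from testis, also did not overlap between mdx and wild type hearts (4.39, 4.52 and 4.35 against 4.09, 3.91 and 4.26), but was too dim to be tested. Across complex IV the averaged heart changes without the 2 arrays ran from -0.54 to 1.08, and 15 of 19 genes read higher.

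The effect of dystrophin loss was compared between the tissues as a difference of differences. 0 of the 82 genes passed, beside 0.462% of all probe sets on 24 arrays and 1.02% on 22, with a median of 0.20 on 24 arrays and 0.11 on 22 (limma, smallest adjusted p 0.279 and 0.125). The sign, lower in gastrocnemius and higher in heart, is thus a description of medians.

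Cmah loss changed none of the 82 genes past the threshold in either tissue, beside 0.00339% of probe sets in gastrocnemius and 0% in heart for the averaged comparison (0.00347% in heart without the 2 arrays). In gastrocnemius the median was 0.01, with 47 of 82 higher. The 1 gene with an unadjusted p under 0.05, against 1.11% of probe sets, was Cox7c. It read 6.57, 6.91 and 7.30 in wild type, 6.59, 6.04 and 5.87 in Cmah knockout, 6.89, 6.42 and 6.16 in mdx and 5.41, 6.48 and 5.63 in Cmah knockout mdx. The groups with and without Cmah overlapped between 6.16 and 6.59, and the difference was -0.71 ± 0.25 (unadjusted p = 0.0169, adjusted p = 1, limma). In heart Cox7c had -0.12 ± 0.18 without the 2 arrays.

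In heart, the medians for Cmah loss followed the deviating arrays. The median of the 82 was -0.20 on 12 arrays (limma; 0 genes had an unadjusted p under 0.05, against 2.4% of probe sets), where that of all genes was -0.29, and -0.00 on 10. Cmah knockout against wild type gave -0.30 with and -0.06 without its deviating array. 10 genes lay below wild type in all 3 Cmah knockout hearts, beside 3.62% of probe sets. Without the deviating array the count was again 10, beside 4.83% of probe sets. 5 genes lay above mdx in all 3 Cmah knockout mdx hearts, beside 3.43% of probe sets, and 9 did so without the deviating array, beside 5.2%. The interaction of dystrophin and Cmah loss gave 0 calls in both tissues, beside 0% of probe sets.

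**Figure D5:**
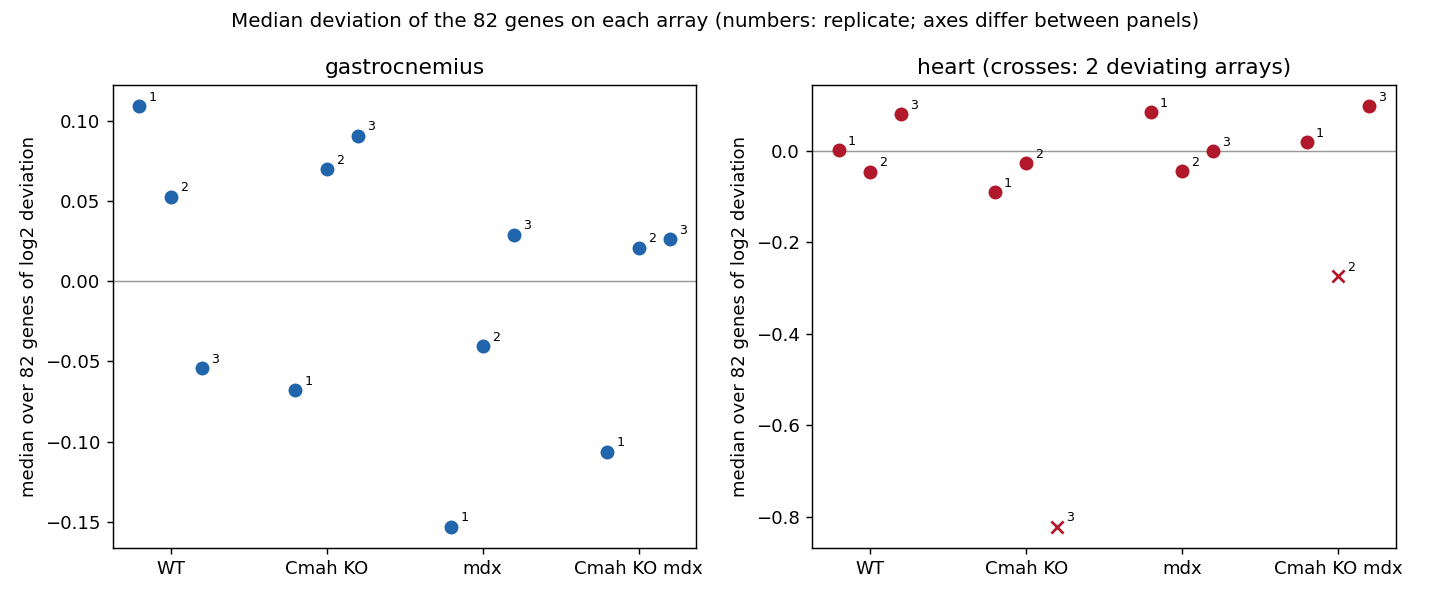
Median over the 82 genes of the log2 deviation from the gene's mean in the tissue (heart mean over 10 arrays), for each array (points, numbered by replicate) by genotype. Gastrocnemius arrays lie between -0.15 and 0.11 with overlapping genotypes, and the 2 crosses in heart mark the deviating arrays.

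The 82 genes varied unequally between animals of one group. The within-group SD over 22 arrays had a median of 0.23 and ran from 0.047 to 1.03, and 7 genes exceeded 0.5: Cox7b2, Uqcrc1, Ndufb10, Ndufb4, Ndufa8, Ndufa4l2 and Ndufa4. Of these, Cox7b2, with the largest SD, and Ndufb4 were dim, at the 18.3rd and 25.8th percentile of all probe sets. The part of background signal in their spread was not tested. Ndufb10, an accessory subunit of complex I, read 12.92, 12.79 and 11.76 in wild type, 11.46, 12.98 and 13.03 in Cmah knockout, 11.57, 12.62 and 13.17 in mdx and 11.60, 12.87 and 12.84 in Cmah knockout mdx gastrocnemius. The low array of each group is the one with the largest Gapdh difference. Ndufa8, another accessory subunit, was lowest on the same 4 arrays, at 11.07, 11.11, 10.99 and 11.15 against 11.65 to 12.28 on the rest, and so was Uqcrc1, at 10.67, 10.72, 10.74 and 10.62 against 11.49 to 12.38. In heart all 3 genes were again below the rest on the 4 arrays of the same animals: Ndufb10 read 11.84 to 12.36 against 13.03 to 13.19, Ndufa8 11.07 to 11.62 against 11.90 to 12.50 and Uqcrc1 10.09 to 10.80 against 11.92 to 12.27.

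In all, 19 of the 82 genes lay below the rest on these 4 arrays in both tissues, beside 9.19% of all tested probe sets, and 6 lay above in both, beside 4.03%. The 19 include Cox5a and Cox6a1 of complex IV and Atp5b, Atp5h, Atp5o and Atp5pb of complex V. The 6 are Sdha, Ndufc2, Cox7a2, Cox7a2l, Cox8b and Atp5md. Sdha read 12.85 to 13.07 on the 4 arrays and 12.17 to 12.56 on the rest in gastrocnemius, and 12.86 to 13.08 against 12.64 to 12.75 in heart. Cox8b read 13.13 to 13.16 against 12.38 to 12.88 in gastrocnemius and 13.27 to 13.56 against 12.53 to 13.04 in heart, so its spread within a genotype was wider than its difference between the tissues. The part of RNA quality in these levels was not tested. Since each genotype holds 1 of the 4 animals, they enter every comparison on both sides. The shares are unequal in heart without the 2 deviating arrays. There they are 1 of 2 arrays in both Cmah knockout groups and 1 of 3 in wild type and mdx.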

How the data were processed

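Per the labels' protocols, total RNA (25 ng) was amplified with a NuGEN Ovation kit and hybridised to Affymetrix mouse arrays. The submitters' processing notes name GCOS and RMA without versions. The deposited values are intensity values on a linear scale for 45037 probe sets besides 64 controls, and their log2 was taken here. Symbols came from the platform annotation (34945 probe sets with 1 symbol, 932 with several, 9160 with none), and 10 probe sets that name several symbols, 1 of them fitting the rule, were left out.

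A probe set was tested where at least 3 arrays lay above the 40th percentile. Within each tissue the means of the 4 genotypes were modelled in R 4.3.3 by limma 3.58.1 (functions lmFit and eBayes, two-sided). The tissues were compared over 24 arrays with animal, read from the labels' animal numbers, as a random block (duplicateCorrelation, 0.214). Adjusted p values are Benjamini-Hochberg over all probe sets tested, called below 0.05. Errors are SE of differences unless SD is stated. Repeats without 2 heart arrays, without both tissues of their animals, with the block from the Gapdh controls, and for the tissue difference in each genotype were added after seeing the data. The code was tested on simulated data, with changes of known size added to 50 probe sets per size. Few changes of 1 or less were recovered within a tissue, so a count of 0 calls does not show that genes are unchanged.

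The genes and lists were chosen with earlier results of these data known. Genes named are fixed isoform pairs and subunits, and for each comparison and complex up to 3 called genes of largest rise and fall, or the 2 of smallest p; Ndufb2, Ndufb5, Ndufa3, Atp5l, Cox8c, Uqcrc1, Ndufb10, Ndufa8, Ndufb11, Uqcrh and others of small change or wide spread were named after their values were seen. Each animal gave 1 array per tissue, so the arrays of a tissue are separate animals. By the animal numbers, same-numbered replicates of different genotypes were therefore not pairs. Their deviations still correlated above 0.1 in 10 of 18 same-numbered pairs in gastrocnemius and 6 of 18 in heart. The mean correlation was 0.0391 against -0.0133 for other pairs in gastrocnemius, and 0.00252 against 0.0027 in heart. No pair of arrays was identical.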

Additional observations from a re-analysis of the deposited data

How the results depend on the processing

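Within each tissue, no gene of the 82 was called under any alternative, including each array left out (0 to 0), the filter, the normalization, array weights, the replicate block and the Gapdh block. For the tissue difference averaged over genotypes, 13 genes were called, beside 8653 of 32266 probe sets in either direction. The count was 23 with quantile normalization, beside 8106 of all probe sets, and 45 with array weights, beside 16581. Without the animal block it was 8, beside 6771, and with a replicate block in place of the animal 8, beside 6696. With the mean of all probe sets of a gene it was 20, beside 4662 of all genes. It was 46 without both deviating hearts, beside 13002 probe sets, and 41 without both tissues of these 2 animals, beside 11869. Without both hearts and with the Gapdh block it was 63, beside 16652. With each single array left out it was 8 to 28, beside 7546 and 11759 probe sets at these ends. In wild type alone the count of 0, beside 2051 probe sets, became 4 with array weights, beside 7308. It was 1 with the mean of all probe sets, beside 1402 genes. Without the 2 hearts it was 4, beside 5248 probe sets, and without the 2 animals 4, beside 4846. With the Gapdh block added to the fit without the 2 hearts it was 22, beside 9548. It stayed 0 with each array left out. The cause of these shifts was not tested. Over 36 repeats Cox6b2, Cox6c, Cox7a1, Cox7c, Cox8a and Ndufa1 kept their call in all 36, Cox7b2 lost it in 18, Ndufs1 and Ndufs4 in 16, Ndufa5 in 13, Ndufa6 in 5, and Cox4i2 and Cox7a2l in 1. None reversed. The replicate block changed no call of the 82 within a tissue. Leaving out heart Cmah knockout replicate 3 moved the median interaction in heart to -0.0191, and the range over arrays left out was -0.0191 to 0.422.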
